A study of Mus musculus with 2 samples.

Results

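The 5 miRNA genes described here lie in imprinted regions of the mouse genome: Mir675 in H19, Mir483 in Igf2, Mir335 in Mest, and Mir296 and Mir298 beside Gnas. They were taken by symbol from the annotation that the count tables use, and all 5 of 5 were found among the 2202 miRNA genes counted. MicroRNA-seq had been done on hearts of B6CASTF1/J mice, first-generation hybrids between the strains C57BL/6J and CAST/EiJ. There were 2 hearts (replicates 1 and 2), both female, both 10 days old, with no treatment or altered allele named in the labels, and 1 library each. With 1 group there is no contrast between conditions, so levels and their spread between the 2 hearts are given, and a test between them compares 2 libraries only.

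An imprinted gene is transcribed mainly from the chromosome inherited from 1 parent. H19, a long non-coding RNA, is known as maternally expressed and the growth factor gene Igf2 next to it as paternally expressed. Mest, an enzyme gene of mesoderm, is paternally expressed, and the Gnas locus encodes a G protein alpha subunit together with antisense and alternative transcripts of either parent. A miRNA gene gives a hairpin that is cut to a 5p and a 3p arm of 21 to 24 bases here, and the seed of an arm (bases 2 to 8) pairs with target mRNAs. The tables count reads per hairpin gene, with arms and parental alleles together. Neither the imprinting nor the arm in use was therefore measured. A heart also holds muscle, vessel, connective tissue and blood cells, and a change in their numbers cannot be told apart from a change of RNA per cell.

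The mature arms are shown because the 5 genes have no seed in common. All 10 arms were found in RefSeq (GRCm38.p6). They are written 5′ to 3′ with the seed in capitals.
mmu-miR-675-5p: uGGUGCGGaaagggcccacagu
mmu-miR-675-3p: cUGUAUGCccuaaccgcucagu
mmu-miR-483-5p: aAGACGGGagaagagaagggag
mmu-miR-483-3p: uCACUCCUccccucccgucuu
mmu-miR-335-5p: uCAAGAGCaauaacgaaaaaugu
mmu-miR-335-3p: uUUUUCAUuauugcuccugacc
mmu-miR-296-5p: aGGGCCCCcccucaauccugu
mmu-miR-296-3p: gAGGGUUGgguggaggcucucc
mmu-miR-298-5p: gGCAGAGGagggcuguucuuccc
mmu-miR-298-3p: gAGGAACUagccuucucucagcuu
The 10 seeds were all different, and no other arm among the 1738 in the RefSeq table has any of them. Of those 1738 arms, 68.0% have a seed that no other gene has. No arm is identical to an arm of another miRNA gene. The longest run that any of the 5 hairpins shares with another annotated miRNA gene is 12 bases (Mir298 with Mir8099-2), and it is 11 bases for each of the other 4. Matches elsewhere in the genome were not searched.

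Mir675 is at chr7:142577064-142577147 on the minus strand (mm10). Its hairpin lies inside an exon in 3 of the 7 annotated H19 transcripts and in an intron in 1, and the other 3 do not reach it. Mir483 is at chr7:142654924-142654996, also on the minus strand and 77776 bases from Mir675, in an intron of 7 of the 9 Igf2 transcripts. It also lies in an intron of the 1 transcript of Gm49394, a protein-coding gene on the same strand. Mir335 is at chr6:30741299-30741396 on the plus strand, in an intron of 7 of the 11 Mest transcripts. Mir296 (chr2:174267047-174267125) and Mir298 (chr2:174267504-174267585) are on the minus strand with 378 bases between them. They overlap no other annotated gene. The nearest annotated end of Nespas, an antisense RNA gene of the Gnas locus on the same strand, lies 13651 bases from Mir298, and that of Gnas, on the plus strand, 16734 bases from it.

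Reads on named genes numbered 4260561 in replicate 1 and 4583025 in replicate 2, and levels are given as CPM, which scale these totals to the same size. Of all reads, 38.9% and 38.0% were placed at more than 1 position and belong to no gene. The heart muscle genes Mir208a, Mir208b and Mir499 summed to 9644 CPM in replicate 1 and 6536 CPM in replicate 2. The 3 neuronal Mir124 genes had 0 counts in both hearts, but each shares a run of 32 bases with another of them, so these counts set no limit on their level. Markers of other cell types differed between the hearts: erythroid Mir451a and Mir144 summed to 268 and 749.5 CPM, and the liver gene Mir122 stood at 76.3 and 141 CPM. Leukocyte (Mir142, Mir223) and epithelial (Mir200b, Mir429) genes summed to 238 and 270.1 CPM and to 58.9 and 62.4 CPM, and skeletal muscle Mir206 had 19.01 and 15.3 CPM. The part of cell makeup in the differences below was not tested.

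All 5 genes were detected (at least 10 counts in each heart), as were 15.7% of all 2202 miRNA genes. The order of levels was the same in both hearts: Mir335 was highest, followed by Mir298, Mir483, Mir296 and Mir675, and no 2 neighbours in this order overlapped between hearts. Mature miRNAs are nearly equal in length, so no length scaling was applied, but ligation differs by sequence. The median of the 5 genes was 836 CPM, beside 85.1 CPM over the 346 detected genes. Together they took 1.47% of the counts in replicate 1 and 1.14% in replicate 2, and Mir335 alone made up 72.6% and 77.6% of their reads.

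**Figure D1:**
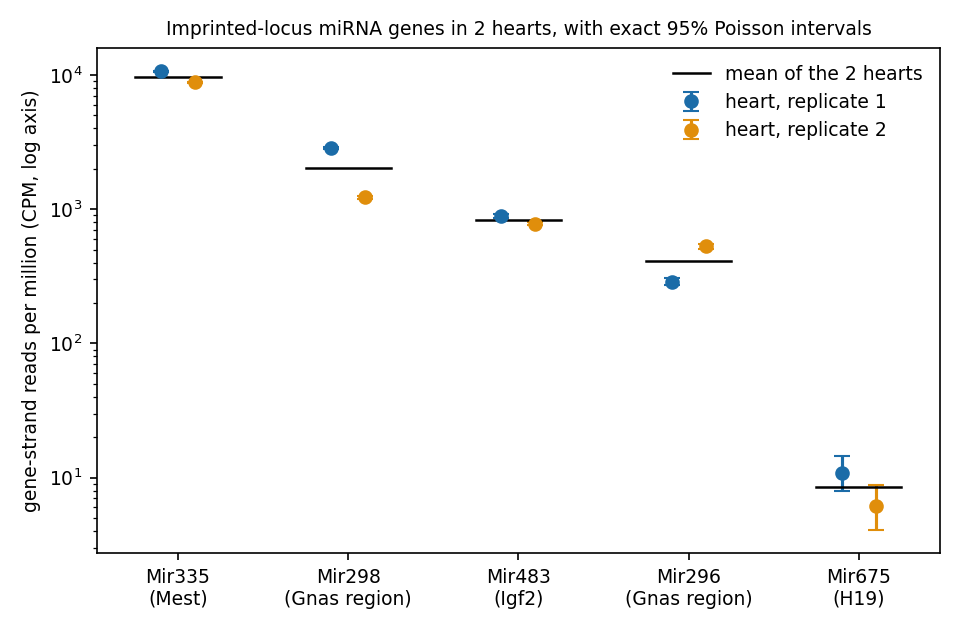
Gene-strand CPM (log axis) of the 5 miRNA genes in each of the 2 hearts, with exact 95% Poisson intervals of the counts as bars and the mean of both hearts as a line. Mir335 has a mean of 9743 CPM and Mir675 of 8.45 CPM; Mir298 is higher in replicate 1 and Mir296 is higher in replicate 2.

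Mir335, studied for its part in mesenchymal cells and as a suppressor of metastasis, had 45442 counts in replicate 1 and 40428 in replicate 2. These are 10666 CPM (exact 95% Poisson interval 10568 to 10764) and 8821 CPM (8735 to 8908), a mean of 9743 ± 1304 CPM (SD, n = 2). It ranked 19 and 22 among all genes by uniquely placed reads, the sole kind counted, so miRNAs with several genomic copies could stand higher than the tables show. By mean level it stood below Mir125a (11268 ± 1655 CPM) and Mir652 (10760 ± 86.1 CPM) and above Mir21a (8862 ± 6526 CPM) and Mir30e (8509 ± 1814 CPM). The ranges of Mir335 and of Mir125a, Mir21a and Mir30e over the 2 hearts overlap, so their order is not fixed by these data.

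Mir298, beside Gnas, had 12100 counts in replicate 1 and 5617 in replicate 2, which are 2840 CPM (2790 to 2891) and 1226 CPM (1194 to 1258), with a mean of 2033 ± 1142 CPM (SD, n = 2). The heart of replicate 1 was the higher, and its rank was 44 against 70 in the other. Its neighbours by mean level were Mir15a (2096 ± 904 CPM) and Mir145a (2069 ± 85.8 CPM) above and Mir92-1 (1995 ± 185 CPM) and Mir423 (1983 ± 619.6 CPM) below. Mir296, known from studies of blood vessel growth, had 1232 and 2429 counts. Its level was 289 CPM (273 to 306) in replicate 1 and 530.0 CPM (509 to 552) in replicate 2, with a mean of 409.6 ± 170.3 CPM (SD, n = 2). Here replicate 2 was the higher, the reverse of Mir298. Mir874 (419 ± 43.3 CPM) and Mirlet7c-1 (413 ± 16.2 CPM) stood just above it and Mir339 (405 ± 25.5 CPM) and Mir30c-2 (387 ± 15.3 CPM) just below. The ranges of Mir298 and Mir296 over the 2 hearts overlap those of all their named neighbours, so these orders are not fixed by the data. Only uniquely placed reads are counted. Neighbours with further genomic copies, as the numbered symbols Mirlet7c-1, Mir30c-2 and Mir92-1 may mark, could therefore stand higher than given.

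Mir483, the intronic miRNA of Igf2, had 3789 counts in replicate 1 and 3587 in replicate 2. Its level of 889 CPM (861 to 918) and 783 CPM (757 to 809) gave a mean of 836 ± 75.4 CPM (SD, n = 2), with ranks of 81 and 82. It was the member with the smallest relative spread between the hearts. Its neighbours were Mir425 (874 ± 188 CPM) and Mir221 (868 ± 395 CPM) above, and Mir872 (762 ± 72.1 CPM) and Mir10b (704 ± 182 CPM) below. Mir675, processed from H19 and known as a brake on placental growth, had 46 and 28 counts. That is 10.8 CPM (7.90 to 14.4) and 6.11 CPM (4.06 to 8.83), a mean of 8.45 ± 3.31 CPM (SD, n = 2). At this depth the counting intervals of the 2 hearts overlap, but overlap does not measure the difference. The log2 ratio with its own interval is given below. Mir3072 (8.67 ± 1.31 CPM) and Mir495 (8.56 ± 3.16 CPM) were the genes just above it, and Mir6240 (8.31 ± 2.13 CPM) and Mir211 (8.08 ± 1.86 CPM) those just below. The ranges of Mir483 and Mir675 over the 2 hearts also overlap those of all their named neighbours, so these orders are not fixed either.

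Within the H19 and Igf2 region, Mir483 exceeded Mir675 by 81.5-fold in replicate 1 (61.6 to 113, exact 95% interval) and by 126-fold in replicate 2 (88.5 to 193). Mir335 exceeded Mir483 by 12.0-fold and 11.3-fold, a ratio that was close in the 2 hearts. Mir335 exceeded Mir298 by 3.76-fold and 7.20-fold. These ratios are within a library, so they do not depend on how libraries are scaled.

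Between the hearts, 4 of the 5 genes passed the exact binomial test, which allows for counting error alone (adjusted over 375 genes by Benjamini-Hochberg), beside 55.2% of all genes tested. Higher in replicate 1 were 3 of them (background 29.1%) and higher in replicate 2 was 1 (background 26.1%). The median absolute log2 ratio was 0.75 over the 5 genes and 0.37 over the 375. The 0.75 is the value of Mir675, which had 46 and 28 counts. Of the other members, Mir483 and Mir335 lay below 0.37, and Mir296 and Mir298 lay above it. The log2 ratio of replicate 2 over replicate 1 was -1.15 for Mir298 (exact 95% interval -1.19 to -1.10), which is 2.21-fold higher in replicate 1. For Mir296 it was 0.94 (0.84 to 1.04), or 1.92-fold higher in replicate 2 (exact binomial test, adjusted p = 7.62e-81). Mir335 differed by -0.21 (-0.23 to -0.19) and Mir483 by -0.12 (-0.18 to -0.05; exact binomial test, adjusted p = 0.00112), both small differences at high depth. Mir675 had a log2 ratio of -0.75 (-1.49 to -0.05) and did not pass (exact binomial test, adjusted p = 0.0634). Scaled by total counts its ratio was -0.81 and passed (exact binomial test, adjusted p = 0.0351).

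**Figure D2:**
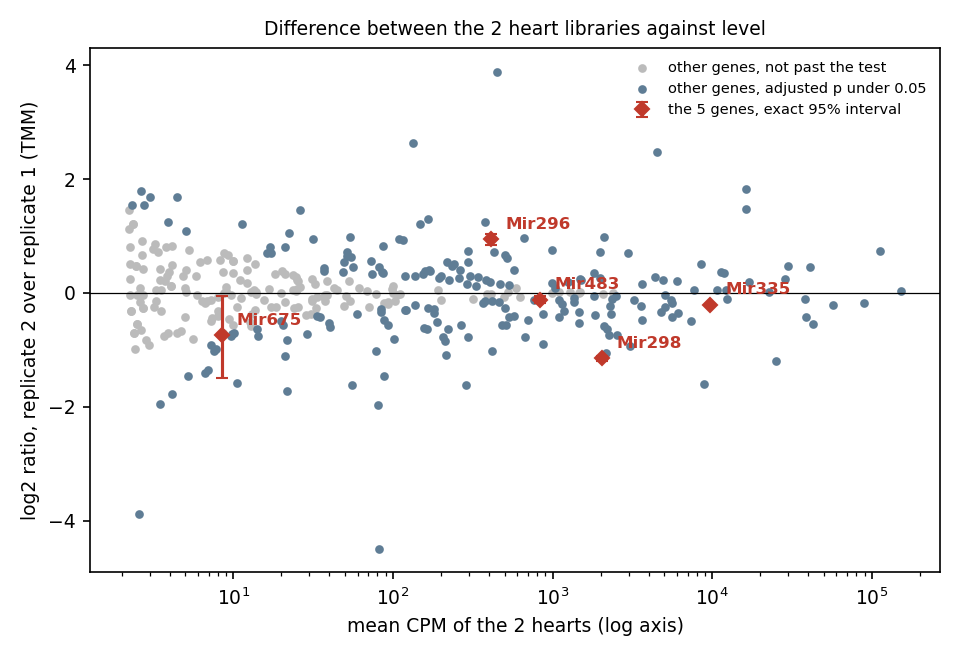
Log2 ratio of replicate 2 over replicate 1 (TMM scaling) against mean CPM (log axis) for the 375 miRNA genes that were tested (at least 20 counts in both hearts together); the 5 genes are diamonds with exact 95% intervals. Mir296 lies at 0.94 and Mir298 at -1.15, on opposite sides of 0, while Mir335 and Mir483 lie close to 0.

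Among the 156 genes counted at least 1000 times in the 2 hearts together, 12 had an absolute ratio at least as large as that of Mir298 and 18 at least as large as that of Mir296, each count including the gene itself. The direction of Mir298 was also that of the heart muscle genes Mir208a (-1.05), Mir499 (-0.33) and Mir208b (-0.19). Skeletal muscle Mir206 (-0.25) and epithelial Mir429 (-0.72) had it too. The direction of Mir296 was that of Mir451a (1.25), Mir144 (2.64), Mir122 (0.95), Mir142 (0.33), Mir223 (0.12) and epithelial Mir200b (0.95). The epithelial genes thus went both ways. Either direction was common, with 29.1% of all tested genes passing as higher in replicate 1 and 26.1% as higher in replicate 2. The part of these cell types in either difference was not tested.

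Mir296 and Mir298 are neighbours on 1 strand, so their hairpins are shown, with the 5p and 3p arms in capitals.
Mir296 hairpin: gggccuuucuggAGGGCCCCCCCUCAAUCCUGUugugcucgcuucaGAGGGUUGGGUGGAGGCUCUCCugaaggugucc
Mir298 hairpin: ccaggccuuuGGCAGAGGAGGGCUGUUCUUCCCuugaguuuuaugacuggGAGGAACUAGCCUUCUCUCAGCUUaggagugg
The hairpins have 79 and 82 bases, of which 63.3% and 53.7% are G or C. The 1005 RefSeq hairpins have a median of 51.7%. Mir298 exceeded Mir296 by 9.82-fold in replicate 1 (9.26 to 10.4, exact 95% interval) and by 2.31-fold in replicate 2 (2.20 to 2.43). The intervals do not overlap, and the ratio of Mir296 to Mir298 was 4.25 times as high in replicate 2 (exact 95% interval 3.94 to 4.58). This comparison also needs no library scaling. The ratio of Mir675 to Mir483 was 0.643 times as high in replicate 2, with an interval (0.386 to 1.05) that includes no change.

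How often neighbours part in this way was looked at after the values of Mir296 and Mir298 had been seen. There were 266 pairs of miRNA genes on 1 strand with a gap of at most 10 kb, both genes of a pair counted at least 100 times over the 2 hearts. The log2 ratios of the 2 genes of a pair differed by a median of 0.48, and those of Mir296 and Mir298 by 2.09. As large a difference or larger was found in 4 of the 266 pairs, Mir296 and Mir298 included, and the other 3 all involve Mir376c on chromosome 12. With gaps of at most 1 kb it was the largest of 68 pairs, among genes of at least 1000 counts the largest of 87, and with chromosome 12 left out the largest of 74. These settings were also chosen after the values were seen. Each leaves out the 3 larger Mir376c pairs, so the ranks are not separate evidence. Both genes of a pair passed the test in opposite directions in 54 of the 266 pairs (20.3%). The share was 23.5% of the 68 pairs, 34.5% of the 87 and 28.4% of the 74. Pairs that share a gene are not independent, and no test was made.

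**Figure D3:**
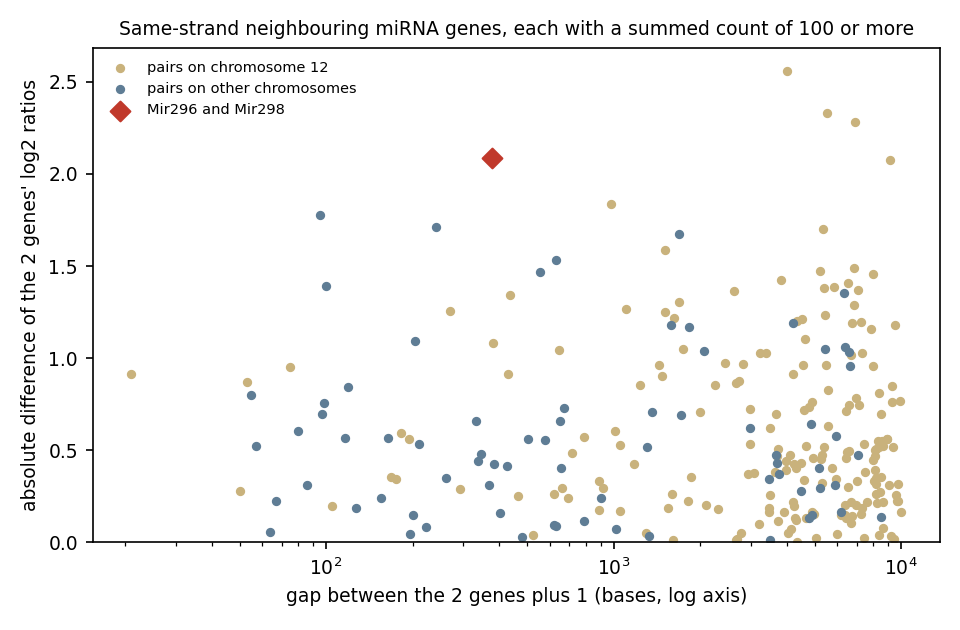
Absolute difference between the log2 ratios (replicate 2 over replicate 1) of 2 neighbouring miRNA genes on the same strand, against the gap between them plus 1 (bases, log axis), for 266 pairs. The diamond is Mir296 and Mir298 (gap 378 bases, difference 2.09), above every other pair with a gap of at most 1 kb. That limit was chosen after the values were seen. Some pairs of Mir376c on chromosome 12 with longer gaps lie higher, up to 2.56.

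Other miRNA genes within 1 Mb of the 5 had low counts with few exceptions. Around Mir675 and Mir483, Mir7063, Mir3104 and Mir7064 had at most 5 counts in a heart, as did Mir96 and Gm23049 near Mir335. Mir6340 and Gm27591, near Mir296 and Mir298, had 0 in both hearts. On the minus strand, opposite to Mir335, lie Mir29a (658 ± 280.0 CPM; 321263 bases away), Mir29b-1 (9.74 ± 0.502 CPM), Mir182 (20.99 ± 11.5 CPM) and Mir183 (14.03 ± 4.72 CPM). Mir29a, which targets collagen mRNAs, was higher in replicate 2 (log2 ratio 0.96, exact 95% interval 0.88 to 1.04), while Mir335 was lower there. Mir182 (-1.10, -1.58 to -0.65) and Mir183 (-0.63, -1.18 to -0.09) were lower there too, and Mir29b-1 had -0.04 (-0.68 to 0.61).

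The 2 large imprinted miRNA regions, taken by position, hold more genes at lower median levels. Between Dlk1 and Dio3 on chromosome 12, 46 of 67 miRNA genes were detected. Their median was 25.4 CPM over the 67 and 50.6 CPM over the 46 detected. Mir127 was highest at 3591 ± 531 CPM, below Mir335. Of the 67, none exceeded Mir335, 3 exceeded Mir298, 4 exceeded Mir483, 9 exceeded Mir296 and 46 exceeded Mir675. Within Sfmbt2 on chromosome 2, 7 of 119 were detected, and Mir467d was highest at 576 ± 94.1 CPM. The median within Sfmbt2 was 0 CPM over the 119 and 206 CPM over the 7 detected. There 1 gene exceeded Mir296, none exceeded Mir483, and 7 exceeded Mir675. Reads at more than 1 position are not assigned, so a gene with near-identical copies is undercounted, and the part of this in either region was not tested. The 67 genes took 1.65% and 1.28% of the counts, close to the 1.47% and 1.14% of the 5. Of the 46 genes tested between Dlk1 and Dio3, 15 passed the binomial test as higher in replicate 1 and 9 as higher in replicate 2 (median log2 ratio -0.16), and of the 8 within Sfmbt2, 7 and 1 did (median -0.77), beside 29.1% and 26.1% of all 375 genes. The 5 genes had a median of -0.21 and all 375 tested genes of -0.02.

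**Figure D4:**
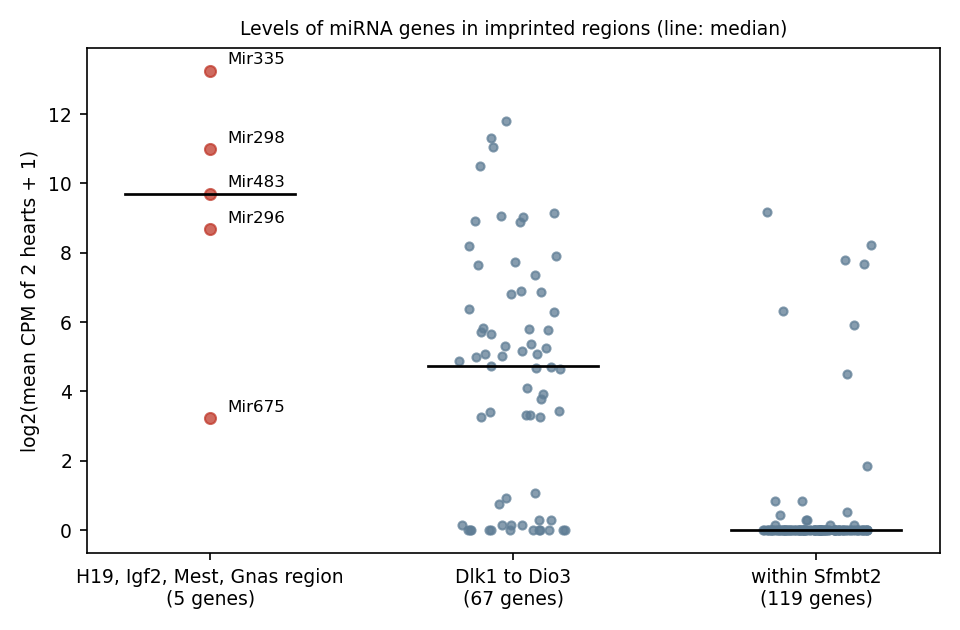
Mean level over the 2 hearts, as log2(CPM + 1), of the 5 miRNA genes, the 67 genes between Dlk1 and Dio3 and the 119 genes within Sfmbt2; lines are medians and points in the 2 larger groups are spread sideways for display. Mir335 lies above every gene of both regions, and Mir675 lies below 46 of the 67 genes between Dlk1 and Dio3.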

How the data were processed

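MicroRNA-seq of total RNA from 2 hearts was used, with size-selected inserts, per the labels. The authors deposited raw read counts per miRNA gene, made on mm10 with GENCODE M21 per the file headers; for the aligner and counter, names and versions were not given in the sources used here. All 2202 gene IDs matched M21, which gave symbols, coordinates and hosts. How CAST/EiJ differences from mm10 affect read placement was not tested. The gene-strand counts were the main measure. CPM were computed over reads on named genes, leaving out the category rows (unmapped, multimapping and outside features, 60.5% and 55.1% of reads). Ratios between libraries used TMM factors (edgeR 4.0.16, R 4.3.3) and a prior count of 0.5. Genes with at least 20 counts over both libraries got an exact two-sided binomial test, Benjamini-Hochberg adjusted over 375 genes at 0.05. In simulated counts for those 375 genes it called 81.0% of 1.5-fold, 89.4% of 2-fold and 4.19% of no changes. The simulated counts held counting noise alone, so these shares do not cover variation between hearts. The test compares 2 libraries, with counting noise as its sole error. Intervals and the floor of 3 counts cover counting error only. Scaling by DESeq2 1.42.0 size factors, total counts, strand, denominators and minimums were alternatives. Python 3.11.15, numpy 2.4.6, scipy 1.17.1 and pandas 2.3.3 were used. Named were the 5 genes, the 2 genes above and below each in level, and a list of cell type markers. Detected genes within 1 Mb or with a shared seed and the highest gene of each imprinted region were also named. Undetected genes within 1 Mb were named by position. Genes named beyond these were chosen after their values were seen. With 2 libraries no likeness of pattern across samples was computed. The 5 genes and the lists were chosen with earlier results of these data known. Sequences are from RefSeq (GRCm38.p6), and the 5 hairpins equal those of M21.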

Additional observations from a re-analysis of the deposited data

Results flagged for a closer look

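Reads placed at more than 1 position numbered 4193785 in replicate 1 and 3872896 in replicate 2, far above the limit of 3 counts for a zero, and belong to no gene in the tables. None of the 5 genes shares a run of more than 12 bases with another annotated miRNA gene. On the opposite strand Mir335 had 1 read in replicate 1, and the other 4 genes had 0 in both hearts.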

How the results depend on the processing

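No paired analysis was possible because all samples form 1 group. Of 81 alternative values, 78 planned and 3 on neighbouring pairs added after seeing the data, 65 were kept (levels within 1 SD, counts of genes within 1.5 times), 15 moved, 1 gained its call and none reversed. With a minimum of 100 counts 4 of the 5 genes were detected, without Mir675. Leaving out a replicate (16 of the 81) cannot move a mean of 2 by its SD. Counted without strand, CPM were 11.9 for Mir675, 1187 for Mir483, 13815 for Mir335, 589 for Mir296 and 2851 for Mir298 (a shift within its SD), since the reads of other genes with a partner on the opposite strand leave the total. Over all reads they were 3.51 (Mir675), 352 (Mir483), 4089 (Mir335), 176 (Mir296) and 836 (Mir298). Without the most abundant gene Mir483 stood at 987 and Mir335 at 11498.5 CPM. By total counts the log2 ratio of Mir675 was -0.81 and passed (exact binomial test, adjusted p = 0.0351); over its other alternatives the adjusted p ran from 0.0510 to 0.121, and a summed count minimum of 100 left it untested. The other 4 genes kept direction and call under every alternative scaling, strand column and minimum. Genes also 2-fold apart numbered 40, against 207. Depth limits Mir675, with 74 counts in all.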

Other observations

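Some other close neighbours also passed the test in opposite directions. Mir429 and Mir200b, epithelial genes on 1 strand of chromosome 4 with 1693 bases between them, had log2 ratios of -0.72 and 0.95. Mir501 and Mir362 on the X chromosome, 630 bases apart, had -0.56 and 0.98. Mir99b and Mirlet7e on chromosome 17, 94 bases apart, had 1.83 and 0.05, a difference of 1.78 without opposite calls. Mir296 and Mir298 differed by 2.09, more than these pairs but less than Mir376c and Mir381 on chromosome 12 (2.56). The summed counts of Mir296 and Mir298 were 3661 and 17717. The pairs named here were chosen after their values were seen.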
